A study of Mus musculus with 8 samples.

Results

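The genes described are 10 regulators of the passage from G1 into S phase of the cell cycle: the CDK inhibitors Cdkn1a, Cdkn1b and Cdkn2a, the pocket proteins Rb1, Rbl1 and Rbl2, the D-type cyclins Ccnd1, Ccnd2 and Ccnd3, and the E-type cyclin Ccne1. They were chosen by name and found by their Ensembl identifiers, version removed, among the 47643 genes of the count table, and all 10 were present. The libraries hold polyadenylated RNA of E14, a line of mouse embryonic stem cells on the 129/Ola strain background, and there are 2 for each of 4 genotypes. The groups were WT and 3 knockouts (KO) labelled Dgcr8_KO, Drosha_KO and Ago1_2_KO, the last lacking Ago1 and Ago2 together. All 4 groups, WT included, had grown for 2 weeks or longer in 2i medium, which is N2B27 with LIF, the GSK3 inhibitor CHIR99021 and the MEK inhibitor PD0325901. The labels do not say how the knockouts were made, nor whether libraries of the same genotype are separate clones or cultures, so that the p-values rest on a spread between samples that may be technical.

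Cyclin D with CDK4 or CDK6, and then cyclin E with CDK2, phosphorylate the pocket proteins RB1, p107 (Rbl1) and p130 (Rbl2), which otherwise hold E2F transcription factors in check. p21 (Cdkn1a) and p27 (Cdkn1b) inhibit cyclin E with CDK2, while the Cdkn2a locus encodes both the CDK4 and CDK6 inhibitor p16INK4a and p19ARF, which stabilises p53. Mouse embryonic stem cells are known for a short G1 phase. DROSHA and DGCR8 cut primary microRNA (miRNA) transcripts, Argonaute proteins carry the mature miRNAs to their targets, and miRNAs of the miR-290 family, the most abundant of these cells, have been reported to repress inhibitors of this transition, Cdkn1a and Rbl2 among them.

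A miRNA pairs with a 3′ UTR mainly through its seed, bases 2 to 8. The mature sequences below show why matches to the miR-290 and miR-17 families are hard to separate: their seeds, in capitals, hold the same bases displaced by 1 position. They are from RefSeq (GRCm38.p6), 5′ to 3′. The genes of miR-291a-3p, miR-294-3p and miR-295-3p lie on chromosome 7 and those of miR-17-5p and miR-20a-5p on chromosome 14.
mmu-miR-291a-3p: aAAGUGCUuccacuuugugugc
mmu-miR-294-3p: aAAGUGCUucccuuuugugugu
mmu-miR-295-3p: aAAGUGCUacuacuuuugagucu
mmu-miR-17-5p: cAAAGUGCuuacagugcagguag
mmu-miR-20a-5p: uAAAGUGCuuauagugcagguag

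A match of 7 bases to the miR-290 seed, AGCACTT, was present in the longest annotated 3′ UTR of 5 of the 10 genes (Cdkn1a, Rbl1, Rbl2, Ccnd1 and Ccnd2), at 6 positions. Of 13429 genes tested that have a UTR of 50 bases or more, 18.2% hold such a match. Several of the 10 genes were known as reported miR-290 family targets when they were chosen. Their share is thus not independent of the choice and cannot be read as an enrichment. The 6 matches follow with their flanks, read on the strand of the gene from GENCODE M21 transcripts (GRCm38). The match is in capitals, extended by the A that makes it an 8-base match where the transcript has one, and the coordinates are those of the match.
Cdkn1a, first match (chr17:29099828-29099834, plus strand): cagacctgaatAGCACTTtggaaaaatga
Cdkn1a, second match (chr17:29100500-29100507, plus strand): gtgggtgtcaaAGCACTTAgtgggtctgac
Rbl1 (chr2:157147478-157147484, minus strand): tgcctgatcaaAGCACTTttggattgttc
Rbl2 (chr8:91123830-91123837, plus strand): tttttcaataaAGCACTTAtaaatta
Ccnd1 (chr7:144931677-144931683, minus strand): ttccatttcaaAGCACTTttggtcagcta
Ccnd2 (chr6:127129341-127129347, minus strand): tccattagaaaAGCACTTtgaaaattttg

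In 4 of the 6 (the first match of Cdkn1a and those of Rbl1, Ccnd1 and Ccnd2) the next base is T, so that the same bases also hold GCACTTT, the 7-base match to the miR-17 seed. A miR-17 family match was present in 6 of the 10 genes, the 5 above and Rb1, against 14.7% of all genes. The limit given for the miR-290 share holds here too, since 4 of these matches share bases with a miR-290 match. The miR-15 family seed (TGCTGCT in the transcript) had a match in 6 of the 10 (Cdkn1a, Rbl2 and all 4 cyclins) against 26.8%, the miR-221 family seed (ATGTAGC) in 2 (Cdkn1b and Ccnd2) against 11.1%, and the let-7 family seed (CTACCTC) in none against 12%. Cdkn2a, whose longest 3′ UTR has 264 bases, held no match of the 5 families. Longer UTRs hold more matches of any kind: genes with a miR-290 match had a median UTR of 2636 bases and those without one 1105 bases. The strand searched was that of the transcript alone, and a match describes letters, not binding.

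**Figure D1:**
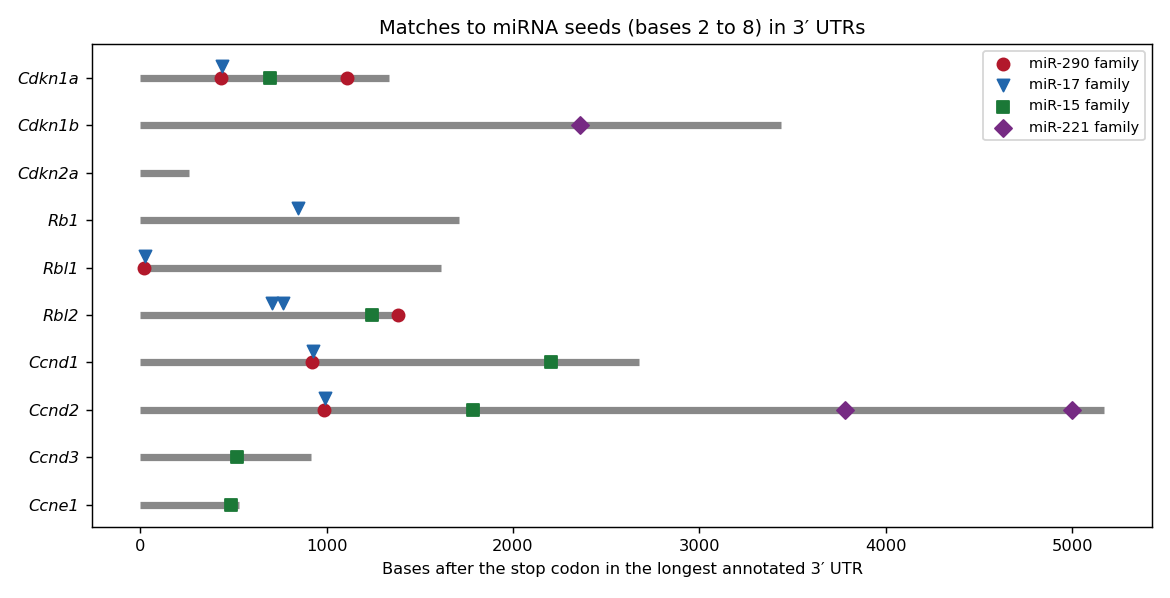
Positions of 7-base seed matches of the miR-290, miR-17, miR-15 and miR-221 families along the longest annotated 3′ UTR of each of the 10 genes, in bases after the stop codon; each grey line is a UTR and each marker a match. The markers of the miR-290 and miR-17 families stand side by side in Cdkn1a, Rbl1, Ccnd1 and Ccnd2, and the UTR of Ccnd2, 5173 bases, is the longest of the 10.

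Total counts lay between 13229771 and 26333907 per library, and all 10 genes passed the low-count filter that left 16388 genes. The 2 WT libraries differed from each other by over 2-fold in 2427 genes and the Drosha KO libraries in 2250, against 580 in Dgcr8 KO and 707 in Ago1_2 KO. All 10 embryonic stem cell markers listed had counts in every library, with summed levels of 6744 to 9941 CPM, which are counts relative to library size, and 10 feeder fibroblast markers summed to 6.80 to 16.1 CPM. Of the 3 feeder markers abundant enough to test, 2 rose in Ago1_2 KO: Thy1 by 1.90 on the log2 scale, to 3.78 and 6.96 CPM, and Col1a1 by 2.23, to 1.39 and 1.57 CPM (edgeR adjusted p 0.0209 and 0.0404). The third, Pdgfrb, was lower there without passing the test (-0.73, edgeR adjusted p 0.221). The feeder markers summed to 11.7 to 16.1 CPM in Ago1_2 KO and to 12 to 14.4 CPM in WT. The part of feeder cells in the changes of Ago1_2 KO was not tested. Drosha mRNA fell in Drosha KO by 2.02 on the log2 scale (edgeR adjusted p 0.00196). The mRNA level of the targeted genes did not check the other knockout labels. Dgcr8 mRNA was higher in the libraries labelled Dgcr8 KO (log2 change 2.36). It was also higher in Drosha KO (1.86, edgeR adjusted p 0.00132) but did not pass the test in Ago1_2 KO (0.23, 0.426). Neither Ago1 nor Ago2 passed the test in the libraries labelled Ago1_2 KO (0.56 and -0.75). Levels below are CPM scaled with TMM factors, and a gene was called where the quasi-likelihood F test of edgeR, fitted to all 8 libraries and all 16388 genes, gave an adjusted p under 0.05. The comparisons with WT share the same WT libraries.

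In Ago1_2 KO the cyclins D1 and D2 and the pocket protein Rb1 rose, by 1.86-fold, 17.3-fold and 2.05-fold. In Dgcr8 KO the single called gene was Cdkn2a, which fell to 46.9% of WT, and in Drosha KO none was called. Of the 10 genes, 3 were thus called in Ago1_2 KO, all higher, where 17.6% of all genes were called (10.2% higher and 7.38% lower). In Dgcr8 KO 1 was called, lower, against 6.93% of all genes (2.45% higher and 4.48% lower). In Drosha KO 0 were called by edgeR, and 0 by DESeq2, against 11.4% of all genes (6.54% higher and 4.83% lower), while 3 of the 10 (Cdkn1a, Rbl2 and Ccnd2) had an unadjusted p under 0.05, against 29.9% of all genes. The median log2 change over the 10 was 0.34 in Ago1_2 KO, beside -0.02 over all genes; it was -0.10 for Dgcr8 KO, beside -0.03, and 0.04 for Drosha KO, beside -0.02. In bulk RNA a change in the share of cells that express a gene and a change in RNA per cell cannot be told apart.

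**Figure D2:**
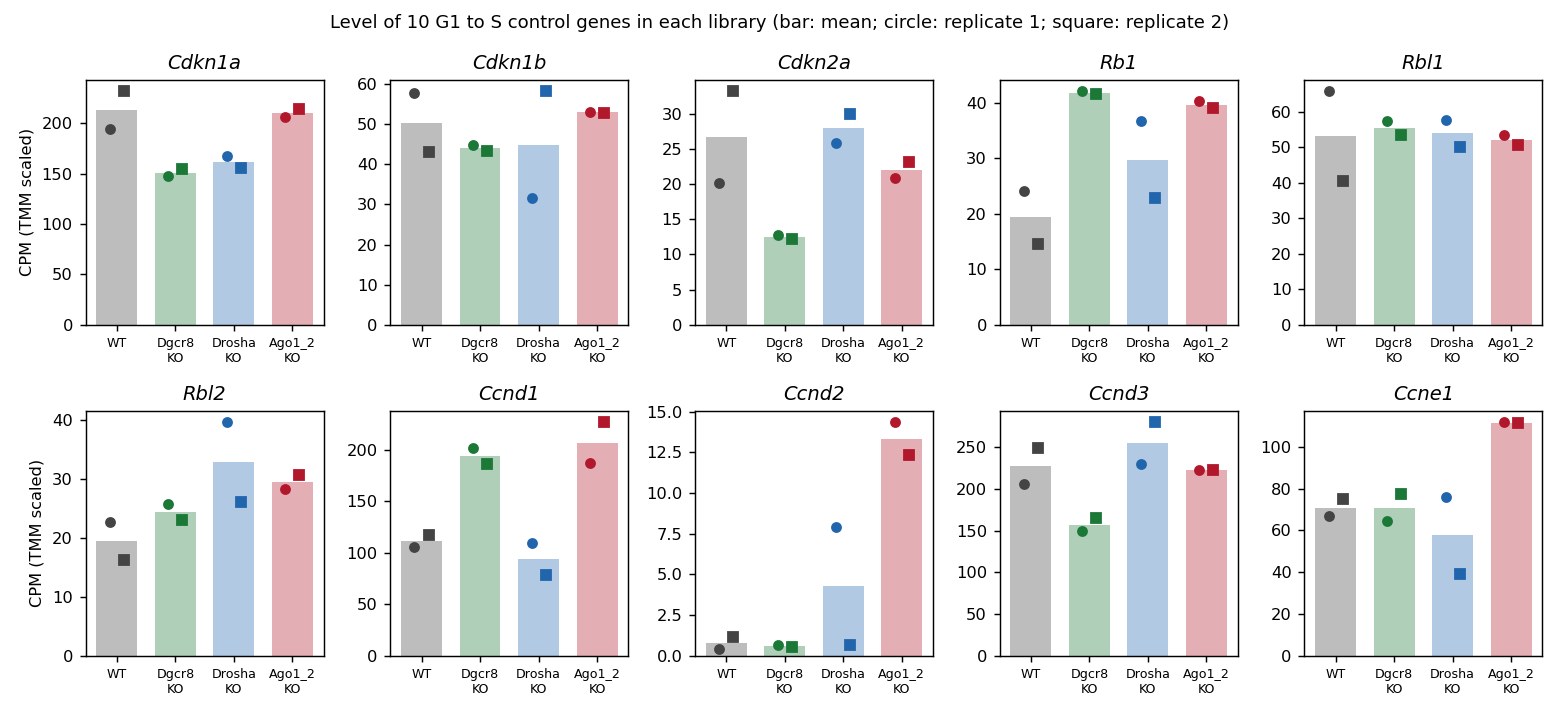
Level of each of the 10 genes in each library, in CPM (TMM scaled), by genotype; the circle is replicate 1, the square replicate 2 and the bar their mean, and each panel has its own axis starting at 0. Ccnd2 is near 0 in WT and Dgcr8 KO, is high in 1 Drosha KO library and in both Ago1_2 KO libraries, while Cdkn2a is lowest in both Dgcr8 KO libraries.

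The CDK inhibitors were read first. Cdkn1a (ENSMUSG00000023067.13, chromosome 17, 29090976 to 29100727), which encodes p21, had 194 and 232 CPM for WT, 148 and 154 for Dgcr8 KO, 168 and 155 for Drosha KO, and 206 and 214 for Ago1_2 KO. Both Microprocessor knockouts lay below both WT libraries, and Ago1_2 KO lay between the WT libraries. The log2 changes were -0.50 ± 0.18 (SE) for Dgcr8 KO, -0.40 ± 0.18 for Drosha KO and -0.02 ± 0.18 for Ago1_2 KO, and none passed the test (edgeR adjusted p 0.103, 0.163 and 0.954). Cdkn1a has 2 of the 6 miR-290 matches printed above, and its mean was not above WT in any knockout, although with DESeq2 size factors its log2 change in Ago1_2 KO was 0.016.

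Cdkn1b (ENSMUSG00000003031.14, chromosome 6, 134920401 to 134925513), which encodes p27, had 57.8 and 43.1 CPM for WT, 44.9 and 43.3 for Dgcr8 KO, 31.6 and 58.2 for Drosha KO, and 53.2 and 52.9 for Ago1_2 KO. The groups overlapped, and the Drosha KO libraries spanned the range of all the others. The log2 changes were -0.19, -0.17 and 0.07 with an SE of 0.28 each (edgeR adjusted p 0.666, 0.725 and 0.878).

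Cdkn2a (ENSMUSG00000044303.6, chromosome 4, 89274471 to 89294653) had 20.2 and 33.2 CPM for WT, 12.8 and 12.2 for Dgcr8 KO, 25.9 and 30.04 for Drosha KO, and 20.9 and 23.1 for Ago1_2 KO. Dgcr8 KO stood below every other library, and the other knockouts lay within the range of the WT libraries. The fall in Dgcr8 KO was -1.09 ± 0.27 on the log2 scale (edgeR adjusted p 0.0413), and the changes in Drosha KO and Ago1_2 KO were 0.07 and -0.28 (adjusted p 0.887 and 0.471). Counts per gene do not separate p16INK4a from p19ARF. The call in Dgcr8 KO was lost without Dgcr8 KO 1 (adjusted p 0.278), Dgcr8 KO 2 (0.218), WT 2 (0.131), Ago1_2 KO 1 (0.0801) or Ago1_2 KO 2 (0.0787), and with an offset for transcript GC content (log2 change -0.41, adjusted p 0.231).

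Among the pocket proteins, Rb1 (ENSMUSG00000022105.6, chromosome 14, 73183673 to 73325822) had 24.2 and 14.5 CPM for WT, 42.0 and 41.6 for Dgcr8 KO, 36.7 and 22.8 for Drosha KO, and 40.3 and 39.0 for Ago1_2 KO. Both libraries of Dgcr8 KO and of Ago1_2 KO stood above both WT libraries, whereas Drosha KO 2 lay between them. The log2 changes were 1.11 ± 0.29 in Dgcr8 KO, just outside the threshold (edgeR adjusted p 0.0513), 0.62 ± 0.29 in Drosha KO (0.189) and 1.04 ± 0.29 in Ago1_2 KO (0.0387, called). In Ago1_2 KO the call was lost without either Ago1_2 KO library (adjusted p 0.172 and 0.151), either Dgcr8 KO library (0.0697 each) or WT 2, the lower WT library (log2 change 0.74, adjusted p 0.142), and in a fit of the 2 groups alone (0.0578). Exons of Rb1 overlap those of Rcbtb2 and Lpar6, on the other strand, by 488 and 408 bases. These had 199 to 685 and 46 to 196 counts per library, where the lowest count of Rb1 was 300, and the strand setting of the counting is not given in the sources used.

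Rbl1 (ENSMUSG00000027641.13, chromosome 2, 157145893 to 157204534), which encodes p107, had 65.8 and 40.5 CPM for WT, 57.5 and 53.5 for Dgcr8 KO, 57.8 and 50.04 for Drosha KO, and 53.4 and 50.5 for Ago1_2 KO. The 6 knockout libraries all lay between the 2 WT libraries. The log2 changes of Rbl1 were 0.06, 0.02 and -0.03 with an SE of 0.24 (edgeR adjusted p 0.881, 0.961 and 0.942).

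Rbl2 (ENSMUSG00000031666.14, chromosome 8, 91070057 to 91123844), which encodes p130, had 22.7 and 16.2 CPM for WT, 25.7 and 23.0 for Dgcr8 KO, 39.6 and 26.1 for Drosha KO, and 28.3 and 30.7 for Ago1_2 KO. All 6 knockout libraries stood above both WT libraries. The log2 changes of Rbl2, 0.32 ± 0.26, 0.76 ± 0.26 and 0.60 ± 0.26, did not pass the test (edgeR adjusted p 0.424, 0.0897 and 0.137). Exons of Rbl2 overlap those of Aktip on the other strand by 693 bases, and Aktip had 285 to 798 counts per library, where the lowest count of Rbl2 was 335.

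The D-type cyclins, which couple growth signals to CDK4 and CDK6, differed from each other in their pattern. Ccnd1 (ENSMUSG00000070348.5, chromosome 7, 144929931 to 144939925) had 105 and 117 CPM for WT, 202 and 186 for Dgcr8 KO, 109 and 78.1 for Drosha KO, and 187 and 227 for Ago1_2 KO. Dgcr8 KO and Ago1_2 KO stood above all WT and Drosha KO libraries, and the latter groups overlapped. The log2 changes of Ccnd1 were 0.80 ± 0.21 in Dgcr8 KO, just outside the threshold (edgeR adjusted p 0.0507), -0.25 ± 0.21 in Drosha KO (0.454) and 0.90 ± 0.21 in Ago1_2 KO (0.0208, called). The call in Ago1_2 KO was lost only without 1 of the 2 Ago1_2 KO libraries (adjusted p 0.0709 without the first and 0.158 without the second), among the settings run. Exons of Ccnd1 overlap those of LTO1 on the other strand by 1100 bases. LTO1 had 176 to 312 counts per library, where Ccnd1 had 1865 or more.

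Ccnd2 (ENSMUSG00000000184.12, chromosome 6, 127125162 to 127152193) had 0.395 and 1.11 CPM for WT, 0.633 and 0.508 for Dgcr8 KO, 7.94 and 0.620 for Drosha KO, and 14.4 and 12.4 for Ago1_2 KO. In counts these were 7 and 23 for WT, 12 and 8 for Dgcr8 KO, 140 and 16 for Drosha KO, and 361 and 165 for Ago1_2 KO. Both Ago1_2 KO libraries were above every other library, and the Drosha KO libraries did not resemble each other: the first was above WT and the second within it. The log2 changes of Ccnd2 were -0.41 ± 1.07 in Dgcr8 KO (edgeR adjusted p 0.821), 2.45 ± 0.94 in Drosha KO (0.118) and 4.12 ± 0.97 in Ago1_2 KO (0.0206, called). The value in Drosha KO was -0.30 without Drosha KO 1 and 3.37 (adjusted p 0.00479) without Drosha KO 2, and the call in Ago1_2 KO was lost without either Ago1_2 KO library (0.0824 and 0.0746) or either WT library (0.0656 and 0.0682). With WT 1 left out the log2 change in Ago1_2 KO was 3.61, and with WT 2 left out it was 5.08.

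Markers of another cell state were highest in Ago1_2 KO, the group with the most Ccnd2, and were above WT at lower levels in Dgcr8 KO and Drosha KO. The 10 markers of two-cell-like cells, a rare state of embryonic stem cell cultures that expresses Zscan4 genes, summed to 3.92 to 6.38 CPM in WT, 21.9 to 25.03 in Dgcr8 KO, 92.3 to 124 in Drosha KO and 380 to 863 in Ago1_2 KO. Of the 9 that were tested, 9 were called higher in Ago1_2 KO, 8 in Drosha KO and 4 in Dgcr8 KO, where 10.2%, 6.54% and 2.45% of all genes were, and none of the 10 was at 0 in both libraries of a group. In Drosha KO 1 and 2, Zscan4f stood at 44.1 and 34.9 CPM, and Ccnd2 at 7.94 and 0.620 CPM. Zscan4f stood at 1.81 CPM or less in WT and at 149 and 354 CPM in Ago1_2 KO. Of 7 mesoderm and neural markers tested, 2 rose in Ago1_2 KO and 2 fell, and the summed level of the 8 listed was 86.2 to 95.8 CPM there and 62.9 to 82.7 in WT. The neural genes Pax6 and Tubb3 rose, by 5.60 and 3.13 on the log2 scale (edgeR adjusted p 0.00046 and 0.00517). Eomes and T, genes of early mesoderm, fell: Eomes by 1.62 (adjusted p 0.0132), and T from 12.6 and 33.1 CPM in WT to 0 and 0.0748. The neural gene Sox1 had 5.13 and 4.56 CPM, below the 6.55 and 8.32 of WT. The part of such cells in the levels of Ccnd2, Ccnd1 and Rb1 was not tested.

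Ccnd3 (ENSMUSG00000034165.16, chromosome 17, 47505051 to 47599691) had 206 and 249 CPM for WT, 149 and 165 for Dgcr8 KO, 229 and 280 for Drosha KO, and 223 and 223 for Ago1_2 KO. Dgcr8 KO stood below every other library, and WT overlapped both other knockouts. The log2 changes of Ccnd3 were -0.53 ± 0.19 in Dgcr8 KO (edgeR adjusted p 0.106), 0.16 ± 0.19 in Drosha KO (0.594) and -0.03 ± 0.19 in Ago1_2 KO (0.935). The UTR of Ccnd3 holds a match of the miR-15 family and none of the other 4 families. Its exons overlap those of Bysl on the other strand by 361 bases, and Bysl had 626 to 1138 counts per library, where Ccnd3 had 2600 or more.

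Ccne1 (ENSMUSG00000002068.16, chromosome 7, 38097984 to 38107534), the partner of CDK2, had 66.8 and 74.9 CPM for WT, 64.3 and 77.4 for Dgcr8 KO, 76.2 and 39.2 for Drosha KO, and 112 and 111 for Ago1_2 KO. Ago1_2 KO stood above every other library, and Drosha KO 2 stood lowest. The log2 change of Ccne1 in Ago1_2 KO was 0.66 ± 0.28 (edgeR adjusted p 0.131), and those in Dgcr8 KO and Drosha KO were 0.00 and -0.30 (adjusted p 1.0 and 0.503).

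**Figure D3:**
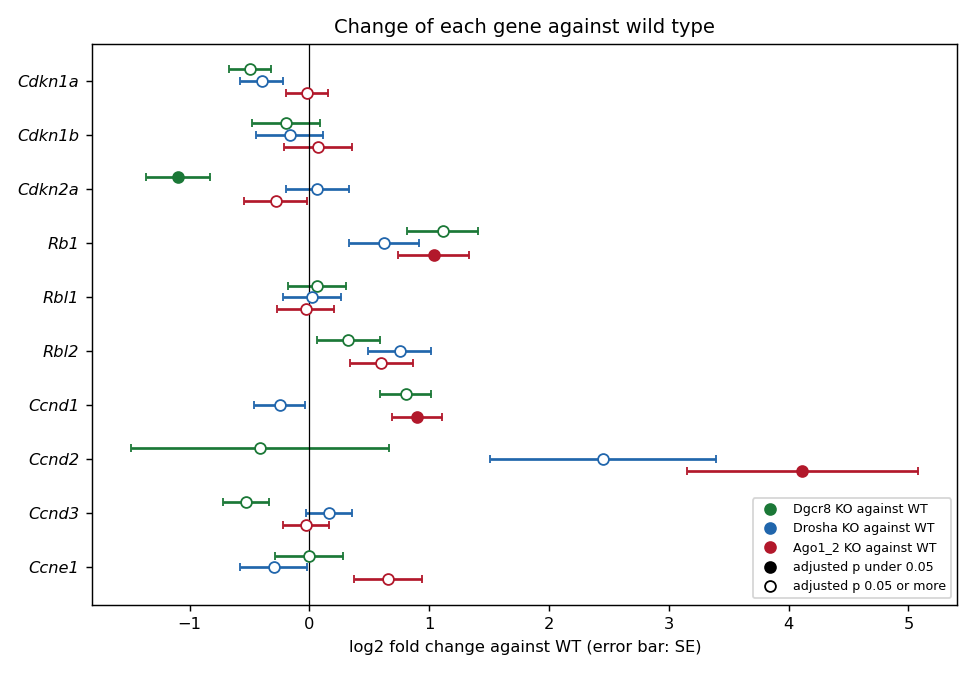
Log2 fold change against WT of the 10 genes in each knockout, with SE bars; filled points have an edgeR adjusted p under 0.05 and open points do not. The 4 filled points are Cdkn2a in Dgcr8 KO, at -1.09, and Rb1, Ccnd1 and Ccnd2 in Ago1_2 KO, at 1.04, 0.90 and 4.12.

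Both libraries of a knockout lay beyond both WT libraries for 6 of the 10 genes in Dgcr8 KO, 3 above (Rb1, Rbl2, Ccnd1) and 3 below (Cdkn1a, Cdkn2a, Ccnd3), where 30.7% of all genes lay above and 31.2% below. In Drosha KO 1 lay above (Rbl2) and 1 below (Cdkn1a), against 25.1% and 26.1% of all genes. In Ago1_2 KO 5 lay above (Rb1, Rbl2, Ccnd1, Ccnd2, Ccne1) and 0 below, against 30.5% and 31.9%. Rbl2 was thus on the same side in each knockout, although it was not called in any. The comparisons share the WT libraries, and the share of all genes on the same side in each knockout was not counted.

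Genes with a miR-290 match had higher median log2 changes than genes without one: 0.19 against -0.09 in Dgcr8 KO, 0.18 against -0.04 in Drosha KO and 0.23 against -0.04 in Ago1_2 KO, over all genes with a UTR. The median was higher with a match for each other family too. In Dgcr8 KO the medians with and without a match were 0.24 and -0.09 for miR-17, and 0.20 and -0.07 for miR-221. They were 0.09 and -0.10 for miR-15, and 0.06 and -0.05 for let-7. In the same order, Drosha KO had 0.24 and -0.04, 0.15 and -0.02, 0.11 and -0.04, and 0.11 and -0.01. Ago1_2 KO had 0.27 and -0.04, 0.21 and -0.01, 0.12 and -0.03, and 0.13 and -0.01. The parts of UTR length, GC content and bases shared between families were not tested. The 5 members with a miR-290 match were spread around the miR-290 medians. In Dgcr8 KO they ran from -0.50 (Cdkn1a) to 0.80 (Ccnd1), in Drosha KO from -0.40 (Cdkn1a) to 2.45 (Ccnd2), and in Ago1_2 KO from -0.03 (Rbl1) to 4.12 (Ccnd2). Rb1, called in Ago1_2 KO, has a match of the miR-17 family and none of the miR-290 family.

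The knockouts were then compared with each other. Between Drosha KO and Dgcr8 KO, both of which lack a part of the Microprocessor, 3 of the 10 genes were called, where 15.4% of all genes were, 9.67% higher and 5.74% lower. Relative to Dgcr8 KO, Ccnd1 was lower in Drosha KO by a log2 difference of -1.05 ± 0.21 (edgeR adjusted p 0.0121), Cdkn2a was higher by 1.16 ± 0.27 (0.0203) and Ccnd3 was higher by 0.70 ± 0.19 (0.0383). All 3 calls were lost without either Dgcr8 KO library (adjusted p 0.11 and 0.0819 for Ccnd1, 0.147 and 0.153 for Cdkn2a, 0.282 and 0.183 for Ccnd3). Without Drosha KO 2 they were 0.0581, 0.0614 and 0.143, and that of Ccnd3 was also lost without Ago1_2 KO 1 (0.0813) or Ago1_2 KO 2 (0.0806).

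Between Ago1_2 KO and Dgcr8 KO, 1 of the 10 was called, where 17.1% of all genes were (11.6% higher and 5.54% lower): Ccnd2 was 23.1-fold higher in Ago1_2 KO, a log2 difference of 4.53 ± 1.01 (edgeR adjusted p 0.015). That call was lost without either library of Dgcr8 KO (adjusted p 0.109 and 0.114) or of Ago1_2 KO (0.0538 and 0.055). Ccnd1, which stood above WT in both, differed between them by 0.10 ± 0.21 (0.784), and Rb1 by -0.08 ± 0.29 (0.88). Between Ago1_2 KO and Drosha KO, 1 of the 10 was called, where 0.732% of all genes were (0.409% higher and 0.323% lower): Ccnd1 was 2.22-fold higher in Ago1_2 KO, a log2 difference of 1.15 ± 0.21 (0.0465). That call was lost without any single library of Dgcr8 KO or Ago1_2 KO (adjusted p 0.114 to 0.386) or without Drosha KO 2 (0.156), in a fit of the 2 groups alone (0.118) and with the GC offset (0.0692). Ccne1 was 1.94-fold higher in Ago1_2 KO than in Drosha KO without passing the test (0.95 ± 0.28, adjusted p 0.219), and the difference was 0.56 without Drosha KO 2 and 1.51 without Drosha KO 1.

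Transcript GC content moved with the changes of Dgcr8 KO. Across 16315 genes, Spearman's rho between GC content and the log2 change was -0.44 for Dgcr8 KO against WT, 0.01 for Drosha KO and -0.04 for Ago1_2 KO. These genes share the libraries and are not independent, so no p is given. The 3 members that stood below WT in Dgcr8 KO are the 3 of highest GC content: Cdkn2a (60.2%), Ccnd3 (56.7%) and Cdkn1a (54.4%). Over all genes the median log2 change in Dgcr8 KO was -0.69 at a GC content of 60 to 65%, -0.50 at 55 to 60% and -0.19 at 50 to 55%. At 40 to 45%, where Rb1 (41.2%), Rbl1 (42.1%) and Cdkn1b (43.1%) lie, it was 0.30. With an offset for GC content fitted in each library, the log2 change in Dgcr8 KO was -0.41 for Cdkn2a (edgeR adjusted p 0.231), 0.75 for Rb1 (0.0925) and 0.89 for Ccnd1 (0.0513). In Drosha KO against Dgcr8 KO, Cdkn2a and Ccnd3 lost their calls under the offset (0.45, adjusted p 0.179, and 0.20, adjusted p 0.463), while Ccnd1 kept its call (-1.12, 0.0129). Rb1, Ccnd1 and Ccnd2 kept theirs in Ago1_2 KO against WT, at 0.90, 0.83 and 3.97 (0.0261, 0.0249 and 0.0207).

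**Figure D4:**
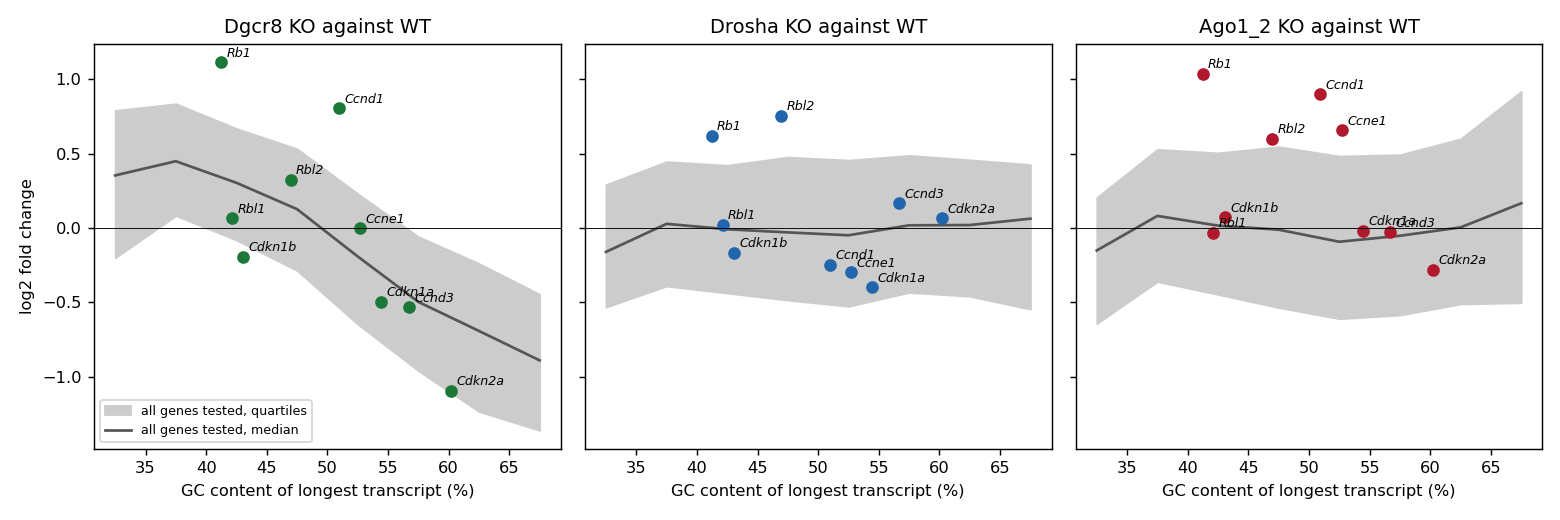
Log2 fold change against the GC content of the longest transcript (%), for each knockout against WT. The grey line and band are the median and quartiles of all genes tested, in bins of GC content. The labelled points are the 10 genes without Ccnd2, which is not drawn. In Dgcr8 KO the grey line slopes down, and Cdkn2a, Ccnd3 and Cdkn1a lie on its GC-rich side, below 0, while in Drosha KO and Ago1_2 KO it is close to flat.

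Levels were compared between genes as CPM per kilobase of merged exons. In WT, Cdkn1a was highest at 59.9, followed by Ccne1 (26.6), Ccnd3 (25.9), Ccnd1 (23.6) and Cdkn2a (22.8), each of which overlapped its neighbour in this order. Cdkn1b (11.1) and Rbl1 (8.86) overlapped each other, as did Rb1 (3.21) and Rbl2 (2.57), and Ccnd2 was lowest at 0.0801. In each knockout Cdkn1a was highest too, although its libraries overlapped those of Ccnd1 in Dgcr8 KO, and Ccnd2 was lowest. Ccnd1 was second in Dgcr8 KO (41.2) and Ago1_2 KO (44.0) and behind Cdkn1a, Ccnd3, Cdkn2a and Ccne1 in Drosha KO (19.9). In Ago1_2 KO and Drosha KO its libraries overlapped those of Ccne1. With the length of the longest transcript in place of merged exons, Ccnd3 was second in WT, at 58.9. Its mean was then ahead of that of Ccnd1 in Ago1_2 KO, although both Ccnd3 libraries lay between the Ccnd1 libraries there.

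On the scale per kilobase of merged exons, the D cyclins summed to 45.9 and 53.3 for WT, 59.9 and 58.5 for Dgcr8 KO, 50.2 and 48.6 for Drosha KO, and 66.7 and 74.95 for Ago1_2 KO. Ccnd1 made up 48.7% and 46.6% of that sum for WT, 71.5% and 67.7% for Dgcr8 KO, 46.2% and 34.2% for Drosha KO, and 59.6% and 64.3% for Ago1_2 KO. Ccnd2 made up at most 2.29% in any library. Among the pocket proteins, Rbl1 made up 61.0% and 59.7% of the sum in WT and 44.4% to 53.6% in the knockouts. Rb1 made up 22.3% and 21.3% for WT, 34.98% and 36.6% for Dgcr8 KO, 29.0% and 24.3% for Drosha KO, and 34.6% and 34.2% for Ago1_2 KO. The share of Rb1 was thus higher in each of the 6 knockout libraries than in the WT libraries. It uses no scaling between libraries, and the WT libraries, whose Rb1 levels were 24.2 and 14.5 CPM, had nearly the same share. The shares were not tested.

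**Figure D5:**
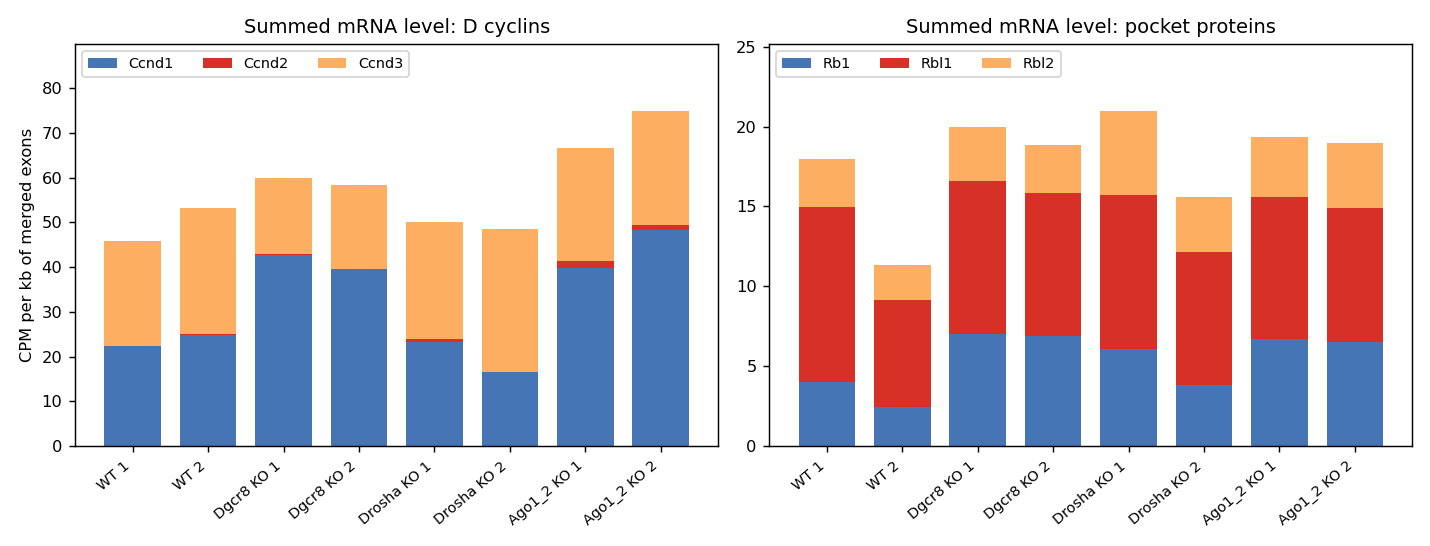
Stacked levels of the D cyclins (left) and the pocket proteins (right) in each library, in CPM per kilobase of merged exons. The Ccnd1 segment is tallest in Dgcr8 KO and Ago1_2 KO, and the pocket protein sums of the WT libraries, 18.0 and 11.3, differ more than their composition does.

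Other genes of the pathway were counted in 8 lists, to be read against the 6.93% of all genes called in Dgcr8 KO, 11.4% in Drosha KO and 17.6% in Ago1_2 KO. Of 13 other G1 to S kinases, cyclins and inhibitors, 0 were called in Dgcr8 KO (edgeR) and 0 in Drosha KO, and 1 fell in Ago1_2 KO: Ccna2, the cyclin of S phase, by 0.63 on the log2 scale (adjusted p 0.0398). Cdk4 and Cdk2, the kinases that the cyclins above activate, were not called, with log2 changes of -0.19 to -0.09 and of -0.09 to 0.05. Cdk6 had 41.9 and 44.4 CPM for WT, 106 and 86.9 for Dgcr8 KO, 111 and 43.9 for Drosha KO, and 79.6 and 60.4 for Ago1_2 KO, and its log2 changes of 1.16, 0.84 and 0.70 did not pass the test (adjusted p 0.0783, 0.155 and 0.199). Ccne2 and Cdkn2b, the neighbour of Cdkn2a on chromosome 4, were not called either.

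Of 10 E2F and DP transcription factors, Tfdp2 rose in Drosha KO (0.83, edgeR adjusted p 0.0354) and E2f8, a repressor of the family, rose in Ago1_2 KO (0.90, 0.0204), and none was called in Dgcr8 KO. E2f1 was not called in any (-0.20, 0.03 and 0.23). Of 7 DREAM and MuvB genes, which act with p107 and p130, Dyrk1a and Lin54 rose in Dgcr8 KO (0.71 and 0.82, adjusted p 0.0421 and 0.0434). Of 20 S phase target genes of E2F, 0 were called higher in any knockout. Over all genes, 2.45% were called higher in Dgcr8 KO, 6.54% in Drosha KO and 10.2% in Ago1_2 KO. In the same order, 0, 3 and 2 of the 20 were called lower, against 4.48%, 4.83% and 7.38% of all genes. Among those called lower, Mcm6, a subunit of the replicative helicase, fell in Drosha KO (-0.88, adjusted p 0.0261) and in Ago1_2 KO (-0.97, 0.0144), and Slbp, which binds histone mRNA, fell in Drosha KO (-0.83, 0.0423). The median log2 change over those 20 was -0.04 in Dgcr8 KO, -0.19 in Drosha KO and -0.22 in Ago1_2 KO.

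Of 14 genes for the turnover of these proteins, Skp2, which marks p27 for degradation, rose in Ago1_2 KO (0.84, edgeR adjusted p 0.0202) and Cdc20 fell there (-0.77, 0.0321). Of 21 p53 and p53 target genes, Bbc3 fell in Dgcr8 KO and Ago1_2 KO (-1.22 and -1.17, adjusted p 0.0345 and 0.0225) and Ei24 rose in Ago1_2 KO (0.65, 0.032). Trp53 itself and Mdm2 were not called. Of 18 mitogen and Myc inputs to the D cyclins, 2 rose and 1 fell in Dgcr8 KO, 1 rose and 2 fell in Drosha KO, and 3 rose and 3 fell in Ago1_2 KO, where 10.2% of all genes were called higher and 7.38% lower. Axin2, a target of beta-catenin, rose in Dgcr8 KO (0.94, adjusted p 0.036) and fell in Drosha KO and Ago1_2 KO (-1.49 and -1.83, adjusted p 0.00536 and 0.00168). The log2 changes of Ccnd1 in Dgcr8 KO, Drosha KO and Ago1_2 KO were 0.80, -0.25 and 0.90, with only the last called. A link between Axin2 and Ccnd1 was not tested. Etv4, a target of MAPK signalling, fell in Drosha KO and Ago1_2 KO (-2.85 and -2.06, adjusted p 0.00921 and 0.0202). With WT libraries at 22.6 and 61.96 CPM, its change in Drosha KO was -3.53 without Drosha KO 1 and -1.92 without WT 2, and in Ago1_2 KO -1.14 (adjusted p 0.113) without WT 2. Mxd4, an antagonist of Myc, rose in Drosha KO and Ago1_2 KO (1.45 and 2.38, adjusted p 0.0435 and 0.00536). Among the calls in 24 Polycomb genes and regulators of the Ink4-Arf locus, Bmi1, a repressor of Cdkn2a, rose in Dgcr8 KO (1.06, 0.0326) and Ago1_2 KO (0.97, 0.0248), and Ezh1 rose in Drosha KO (0.92, 0.0157) and Ago1_2 KO (0.62, 0.0469). Lats2, a kinase gene that slows G1 and holds a miR-290 match, rose in Drosha KO (2.56, 0.00629) and Ago1_2 KO (1.63, 0.024), but its 0.76 in Dgcr8 KO did not pass the test (0.228).

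These counts moved when single libraries were left out. In Dgcr8 KO against WT, all 8 lists had 0 calls without either Dgcr8 KO library or either Ago1_2 KO library. In Ago1_2 KO without either Ago1_2 KO library, the only calls left in the lists were 1 higher and 1 lower of the mitogen list. Without WT 1 the calls in Dgcr8 KO rose to 5 higher and 2 lower of the p53 list and to 4 higher and 0 lower of the Polycomb list, and those in Ago1_2 KO to 7 higher and 2 lower of the Polycomb list. The calls of Axin2, Etv4 and Ezh1 in Drosha KO and of Axin2 and Mxd4 in Ago1_2 KO held with each library left out. With the GC offset Dyrk1a, Lin54, Bmi1 and Bbc3 were not called in Dgcr8 KO, with adjusted p from 0.0649 to 0.324.

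Across the 8 libraries the genes most like a called member in log2 CPM, among 10324 others with a mean of 5 CPM or more, were Polr2f and Dpm3 for Cdkn2a (Pearson's r 0.99 for both), Prdm4 and Rasa1 for Rb1 (0.99 and 0.98), Eda and Uso1 for Ccnd1 (0.99 and 0.96), Mt1 and Mt2 for Ccnd3 (0.99 for both) and, among 10325, Crmp1 and Irf1 for Ccnd2 (both 0.98). These are the highest of many correlations over 8 libraries that share their groups, and they are descriptions. Among the 10 genes the closest pair was Cdkn2a and Ccnd3 (0.95), both GC-rich.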

How the data were processed

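The authors deposited whole-number counts per gene for 8 libraries, made per the labels from polyadenylated RNA with a reverse-stranded TruSeq protocol. Per the submitters' processing notes, reads were aligned with STAR 2.4.2a to mm10 (GRCm38). Not given in the sources used here are the counting tool, its strand setting and its annotation release. Unused count columns numbered 0. Identifiers were matched without version to GENCODE M21 (47224 of 47643 had a symbol, 39106 the same version). The low-count filter filterByExpr left 16388 genes, which were scaled by TMM and fitted in edgeR 4.0.16 (R 4.3.3) with 1 mean per genotype over all 8 libraries and robust estimates. SEs are from the quasi-likelihood F test, whose p-values were Benjamini-Hochberg adjusted over all genes. Log2 CPM used a prior count of 2.

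The 10 genes, the lists and the tests were chosen with earlier results of these data known. Named are all 10 genes, up to 3 genes of each list by smallest adjusted p against WT, 9 further genes fixed by name, and the 2 genes most like each called member. Some genes that this rule takes are not reported here. Alternatives were DESeq2 1.42.0 (size factors, and its Wald test), library size only, limma-voom (limma 3.58.1), no filter, a filter of 1 CPM in 2 libraries, only the groups compared, a replicate block, no robust estimates, a loess offset for transcript GC, an adjusted p under 0.1, and each library left out in turn. A fit that leaves a genotype with 1 library assumes that it varies like the other groups. Seed matches were sought in the longest 3′ UTR and in any annotated UTR. Tested on simulated data for Drosha KO against WT over 16006 genes, the fit recovered 17 of 100 changes of 2-fold and 66 of 100 of 4-fold, with 11 false calls. Figures used Python 3.11.15 and matplotlib 3.10.9.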

Additional observations from a re-analysis of the deposited data

How the results depend on the processing

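With 2 libraries per genotype, changes of about 2-fold can be missed: the simulation recovered 17 of 100. It changed 100 genes of each size among 16006, whereas 1862 of 16388 genes were called in Drosha KO against WT. The Benjamini-Hochberg adjustment is stricter where fewer genes change, so the share of 2-fold changes missed in the data was not measured. The counts of values that follow cover changes against WT, and changes between knockouts with an unadjusted edgeR p under 0.05. Called changes of the 10 genes kept their direction under every alternative run. Of 162 such values, 118 kept their call and 44 lost it. Among 576 values of changes that were not called, 489 were on the same side of the threshold in the same direction, 45 became called and 42 changed sign.

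Of the 10 genes, 1 was called in Dgcr8 KO against WT. The count was 2 with library size only, 3 with DESeq2's Wald test, without a filter or at an adjusted p under 0.1, 4 with the replicate block, and 0 with limma-voom, with the GC offset or with only the groups compared. Leaving out libraries gave 0 to 4: 0 without either Dgcr8 KO library, either Ago1_2 KO library or WT 2, 3 without either Drosha KO library and 4 without WT 1. In Drosha KO against WT the count of 0 became 1 without a filter, with the replicate block or at an adjusted p under 0.1, and 0 to 3 with libraries left out (2 without Drosha KO 2, 3 without WT 1). In Ago1_2 KO against WT the 3 calls became 0 without either Ago1_2 KO library and 1 without WT 2, in a range of 0 to 4. Between Drosha KO and Dgcr8 KO the 3 calls became 1 with the GC offset, and 0 to 4 with libraries left out (0 without either Dgcr8 KO library, 1 without Drosha KO 2). Between Ago1_2 KO and Dgcr8 KO the 1 call became 2 with DESeq2's Wald test or without a filter, 3 with the replicate block, 4 at an adjusted p under 0.1 and 5 with only the groups compared. It was 0 to 4 with libraries left out (0 without a library of either group, 2 without a Drosha KO library, 4 without a WT library). Between Ago1_2 KO and Drosha KO the 1 call became 3 without a filter, 0 with the GC offset or with only the groups compared, and 0 to 3 with libraries left out (3 without Drosha KO 1, and 0 without Drosha KO 2 or any library of Dgcr8 KO or Ago1_2 KO). The cause of these moves was not tested.

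Some log2 changes that were not called reversed. Ccne1 in Dgcr8 KO was 0.015 with DESeq2 size factors, 0.088 with library size only, 0.016 in DESeq2's Wald test, 0.0018 with the 1 CPM filter, 0.00087 with the replicate block and 0.20 with the GC offset. In Ago1_2 KO, Cdkn1a was 0.016 with DESeq2 size factors, 0.078 with library size only, 0.015 in DESeq2's Wald test, 0.0075 with the 1 CPM filter and 0.016 with only the groups compared, and Ccnd3 was 0.0064, 0.069 and 0.0064 under the first 3 of these and 0.0069 under the last. Rbl1 there was 0.049 with library size only and 0.017 with limma-voom. With the GC offset, Cdkn1b in Ago1_2 KO was -0.060, Rbl1 in Dgcr8 KO -0.28 and Rbl1 in Drosha KO -0.0038. With libraries left out, log2 changes ran in Dgcr8 KO from -0.38 to 0.05 for Cdkn1b, -0.24 to 0.47 for Rbl1, -0.93 to 0.54 for Ccnd2 and -0.15 to 0.13 for Ccne1. In Drosha KO they ran from -0.67 to 0.21 for Cdkn1b, -0.23 to 0.49 for Cdkn2a, -0.26 to 0.43 for Rbl1, -0.30 to 3.41 for Ccnd2 and -0.85 to 0.11 for Ccne1. In Ago1_2 KO they ran from -0.11 to 0.13 for Cdkn1a, -0.10 to 0.33 for Cdkn1b, -0.56 to 0.15 for Cdkn2a, -0.32 to 0.39 for Rbl1 and -0.12 to 0.14 for Ccnd3, and, without a change of sign, 3.61 to 5.08 for Ccnd2.

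Libraries of the same number deviated together by a correlation of 0.0963 (WT and Drosha KO) to 0.245, not over 0.1 for every pair, so the numbers were not taken to pair the samples, and the replicate block is given only here.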
